A study of Homo sapiens with 12 samples.

Results

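The endoplasmic reticulum unfolded protein response was followed through 37 genes in MDA-MB-231 cells, an established triple-negative breast cancer line derived from a pleural effusion. The genes were chosen by name, with earlier results of these data known. Each was read from the single probe set that the array's annotation gives to it alone. Of the 37 genes, 35 had such a probe set and all 35 passed the filter on low values, out of 20572 genes kept. HSP90B1 and EDEM2 lie only on probe sets annotated with several genes and have no value here. The 12 arrays formed 4 groups of 3, compared after 24 h: TNFα at 40 ng/ml together with apigenin at 40 µM, apigenin alone at 40 µM, TNFα alone at 40 ng/ml, and untreated control cells. TNFα is an inflammatory cytokine and apigenin a plant flavone. Per the labels both were prepared in a buffered salt solution. The sources used here do not say whether untreated cells received it. All values are deposited log2 expression values, so a difference of 1 is a 2-fold change. The labels number the arrays 1 to 3 within a group and do not say whether they came from separate cultures, so the tests see no spread beyond that of these arrays, which may be technical. The RNA was bulk RNA of each culture, in which fewer cells of a type and less RNA per cell cannot be told apart.

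Proteins destined for secretion or for membranes fold inside the endoplasmic reticulum with the help of chaperones such as BiP, the product of HSPA5. When unfolded proteins accumulate, 3 membrane sensors respond: the kinase and endonuclease IRE1α (ERN1), the kinase PERK (EIF2AK3) and the membrane-bound transcription factor ATF6. IRE1α splices the mRNA of the transcription factor XBP1, PERK phosphorylates eIF2α and slows translation, and ATF6 is cut in the Golgi by the site-1 protease (MBTPS1) to free its transcription factor part. XBP1 and ATF6 raise chaperones, disulfide enzymes and the machinery of ER-associated degradation, which exports misfolded proteins to the proteasome. The arrays gave 1 value per gene, which does not separate spliced from unspliced XBP1 mRNA or report the cutting of ATF6.

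The best known control sequences of these genes are the ER stress response elements, named ERSE and ERSE-II, which bind ATF6 and XBP1 together with NF-Y. Promoters of 300 bases, 250 before to 50 after the annotated start of transcription, were taken from RefSeq on GRCh38.p14. The table held 41 promoters for 33 of the 37 genes, with several starts for 6 of them. Both strands were searched, ERSE as CCAAT and CCACG with 9 free bases between them, and ERSE-II as ATTGG and CCACG with 1 free base between them. ERSE was found in 10 of the 41 promoters (24.4%), against 0.0769% of the 35116 promoters of the table. ERSE-II was found in 3 of the 41 (7.32%), against 0.0541% of all. By gene, 11 of 33 genes (33.3%) held one or both, against 0.161% of the 27305 genes in the table. The genes were listed for their known place in this response, so this share describes the list and is no test. The matched sites are shown because they are the known elements of this response and were found in 11 of the 33 genes; the other 22 held neither. They are written in the orientation of the motif, with the fixed letters of the element in capitals and the free letters in lower case.
HSPA5, ERSE, chr9:125241391-125241409: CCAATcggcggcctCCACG
XBP1, ERSE, chr22:28800603-28800621: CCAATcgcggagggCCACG
CALR, ERSE, chr19:12938384-12938402: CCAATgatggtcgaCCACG
CANX, ERSE, chr5:179698778-179698796: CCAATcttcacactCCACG
CRELD2, ERSE, chr22:49918554-49918572: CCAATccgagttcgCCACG
ERO1B, ERSE, chr1:236282183-236282201: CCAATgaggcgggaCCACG
PDIA6, ERSE, chr2:10812853-10812871: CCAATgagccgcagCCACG
HSP90B1, ERSE, chr12:103930216-103930234: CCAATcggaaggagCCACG
HSP90B1, ERSE, chr12:103930321-103930339: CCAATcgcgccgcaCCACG
HERPUD1, ERSE-II, chr16:56932025-56932035: ATTGGgCCACG
HYOU1, ERSE-II, chr11:119057274-119057284: ATTGGaCCACG
HYOU1, ERSE-II, chr11:119057380-119057390: ATTGGaCCACG
SDF2L1, ERSE-II, chr22:21642114-21642124: ATTGGtCCACG

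**Figure D1:**
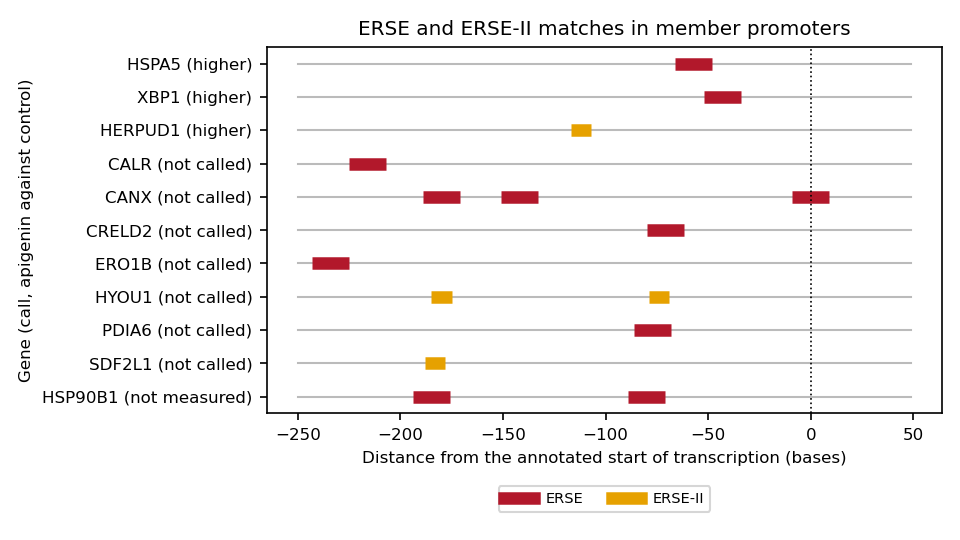
Each row is a gene with a match, the horizontal axis is the distance in bases from the annotated start of transcription, grey lines span the window searched, red bars are ERSE matches and yellow bars ERSE-II matches. The name is followed by the call between apigenin and control. The 3 marks of CANX are 1 genomic site seen from 3 annotated starts; the first bases of the HSPA5 and XBP1 matches lie at -66 and -52.

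Among the measured genes with a promoter in the table, 3 of the 6 that were higher with apigenin than in control held ERSE or ERSE-II (HSPA5, XBP1 and HERPUD1). None of the 4 that were lower held one, and 7 of the 21 that were not called did. These counts describe the windows and say nothing of binding. The UPRE core TGACGTGG was found in 2 genes, DNAJC10 and HYOU1 (6.06% of the 33, against 0.927% of all genes in the table). The shorter ACGTGG, which lies within the UPRE core, was found in 11 (33.3%, against 11.6%). For XBP1 the table also held a promoter of another annotated start, chr22:28800028-28800327, with neither element, which is not printed. The 150 bases upstream of the start whose promoter held the element are given below for the 3 higher genes with one. They run from 150 bases before the start to the base before it, 5′ to 3′ on the gene's own strand, with the whole element in capitals.
HSPA5, chr9:125241344-125241493, minus strand: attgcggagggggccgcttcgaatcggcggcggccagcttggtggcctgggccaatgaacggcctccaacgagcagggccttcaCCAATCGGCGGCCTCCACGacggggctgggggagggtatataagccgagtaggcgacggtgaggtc
XBP1, chr22:28800570-28800719, minus strand: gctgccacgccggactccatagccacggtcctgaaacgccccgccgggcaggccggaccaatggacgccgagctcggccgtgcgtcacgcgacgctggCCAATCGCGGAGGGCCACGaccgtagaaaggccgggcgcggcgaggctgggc
HERPUD1, chr16:56931992-56932141, plus strand: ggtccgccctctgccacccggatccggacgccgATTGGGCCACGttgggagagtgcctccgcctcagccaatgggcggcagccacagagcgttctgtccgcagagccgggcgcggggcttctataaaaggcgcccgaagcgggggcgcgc

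Array medians lay between 2.091 and 2.159, and arrays of 1 group correlated at r = 0.983 to 0.991 across genes. Within its group, array 3 gave the highest of the 3 values for 23 of the 35 genes with both treatments and 25 with apigenin. The counts were 21 with TNFα and 31 in control. The share over all genes was not counted. Arrays numbered 3 also deviated together across all genes kept, at r = 0.302 to 0.464 between groups. Of the fixed markers of a mesenchymal-like breast line, VIM (7.93 to 8.30 over the 12 arrays), AXL (9.88 to 10.19), MSN and ANXA1 read high, and SPARC was the exception at 2.38 to 2.73. The luminal receptors ESR1 (1.84 to 2.44) and PGR (1.37 to 1.84) and the leukocyte gene PTPRC (1.28 to 1.58) read near the bottom of the scale. Other luminal markers read higher, KRT19 at 4.38 to 5.97, EPCAM at 4.58 to 5.24 and GATA3 at 3.65 to 4.67. The mean of 9 luminal markers was 2.88 to 3.05 with both treatments, 3.04 to 3.12 with apigenin, 3.17 to 3.29 with TNFα and 3.25 to 3.35 in control. The mean of the 8 mesenchymal-like markers was 7.72 to 7.77 with both treatments, 7.61 to 7.76 with apigenin, 8.04 to 8.14 with TNFα and 7.87 to 8.04 in control. Of these 8, 6 had arrays with both treatments wholly below those with TNFα (75%, against 14.6% of all genes), and 2 had arrays with apigenin wholly below control (25%, against 14.5%). The part of either marker list in the results was not tested.

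The first comparison asked what apigenin alone changed in these genes. The 35 genes split in both directions. The chaperone BiP (HSPA5), the transcription factor XBP1, the sensor ERN1, the degradation factors HERPUD1 and DERL1 and the cochaperones DNAJB11 and MANF rose. The sensor EIF2AK3, the transcription factor CREB3L2, the protease MBTPS1 and the reductase DNAJC10 fell. In all, 7 of 35 rose (20%), against 4.55% of all genes, and 4 fell (11.4%), against 6.83%. Both directions together made 11 of 35 (31.4%), against 11.4% of all genes. Of the 35 genes, 33 had a mean level above the median of all genes kept (median of the members 6.52, of all genes 2.81). Shares over genes of like level were not counted. Membership and expression level therefore cannot be told apart in any share set against all genes. The median difference of the 35 was 0.16 on the log2 scale, against -0.02 over all genes, and 22 of 35 differences were positive (62.9%, against 46.7%). Arrays of apigenin and control did not overlap for 12 genes in the higher direction (34.3%, against 11.1% of all genes) and for 6 in the lower (17.1%, against 14.5%). Without the 4 arrays numbered 3, 10 of the 11 were still called, and the exception was MANF (adjusted p = 0.106). Without apigenin replicate 1 the count was 7.

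**Figure D2:**
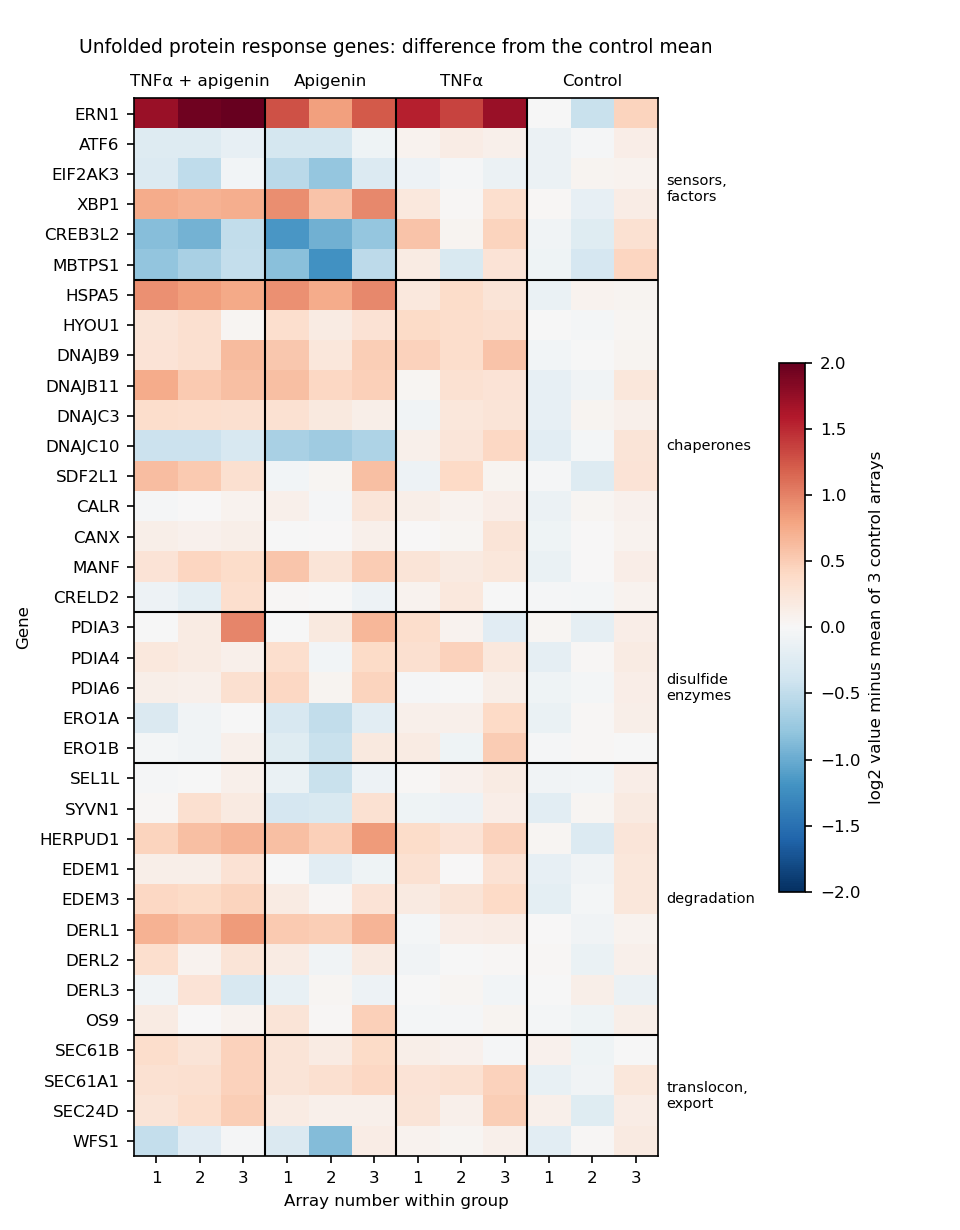
Each row is one of the 35 measured genes, grouped by role, and each column is 1 array, numbered within its group. Colour is the log2 value minus the mean of the 3 control arrays, from blue (2 below) to red (2 above). ERN1 is red in all 9 treated arrays, XBP1, HSPA5 and DERL1 are red in the 6 arrays with apigenin, and CREB3L2, MBTPS1 and DNAJC10 are blue there.

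Among the sensors and their factors, ERN1 read 4.98, 5.21 and 5.26 with both treatments, 4.53, 4.08 and 4.48 with apigenin, 4.81, 4.61 and 4.99 with TNFα, and 3.25, 2.82 and 3.71 in control. Every treated array lay above every control array. ERN1 rose 2.15-fold with apigenin against control (log2 difference 1.11, SE 0.20, adjusted p = 0.00271). XBP1, whose mRNA is the splicing substrate of IRE1α, read 5.84, 5.79 and 5.83 with both treatments, 6.03, 5.66 and 6.06 with apigenin, 5.30, 5.12 and 5.43 with TNFα, and 5.12, 4.92 and 5.24 in control. The 6 arrays with apigenin were all above the 6 without it. XBP1 rose 1.77-fold with apigenin against control (log2 difference 0.82, SE 0.14, adjusted p = 0.00150).

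The other 2 sensors did not rise. EIF2AK3, which encodes PERK, read 4.60, 4.37 and 4.82 with both treatments, 4.33, 4.10 and 4.60 with apigenin, 4.77, 4.85 and 4.75 with TNFα, and 4.76, 4.92 and 4.94 in control. It fell with apigenin against control (log2 difference -0.53, SE 0.15, adjusted p = 0.0319), and arrays of the combined treatment overlapped those of TNFα and of control. This call was lost without control replicate 2 or 3 or apigenin replicate 1 or 2, with adjusted p of 0.0833, 0.0907, 0.0931 and 0.134 in that order. It was also lost in the fit of only the compared groups. ATF6 read 7.89, 7.89 and 7.98 with both treatments, 7.80, 7.80 and 8.06 with apigenin, 8.23, 8.30 and 8.26 with TNFα, and 8.04, 8.13 and 8.29 in control. Its difference with apigenin against control was -0.26 (SE 0.11, 95% interval -0.51 to -0.02, adjusted p = 0.185) and was not called. With quantile normalisation it passed (-0.33, adjusted p = 0.0456).

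MBTPS1, the protease that makes the first cut in ATF6, read 4.95, 5.08 and 5.26 with both treatments, 4.91, 4.53 and 5.21 with apigenin, 5.90, 5.43 and 6.02 with TNFα, and 5.65, 5.40 and 6.17 in control. All 6 arrays with apigenin lay below all 6 without it. It fell with apigenin against control (log2 difference -0.85, SE 0.22, adjusted p = 0.0205). The call was lost without control replicate 3 (adjusted p = 0.0842), apigenin replicate 1 (0.0596) or apigenin replicate 2 (0.0924). CREB3L2, a membrane-bound transcription factor related to ATF6 and also cut in the Golgi, read 4.24, 4.13 and 4.60 with both treatments, 3.91, 4.13 and 4.31 with apigenin, 5.66, 5.13 and 5.53 with TNFα, and 5.01, 4.84 and 5.39 in control. Again no array with apigenin reached an array without it. It fell with apigenin against control (log2 difference -0.97, SE 0.18, adjusted p = 0.00384), the largest decrease of the 35.

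**Figure D3:**
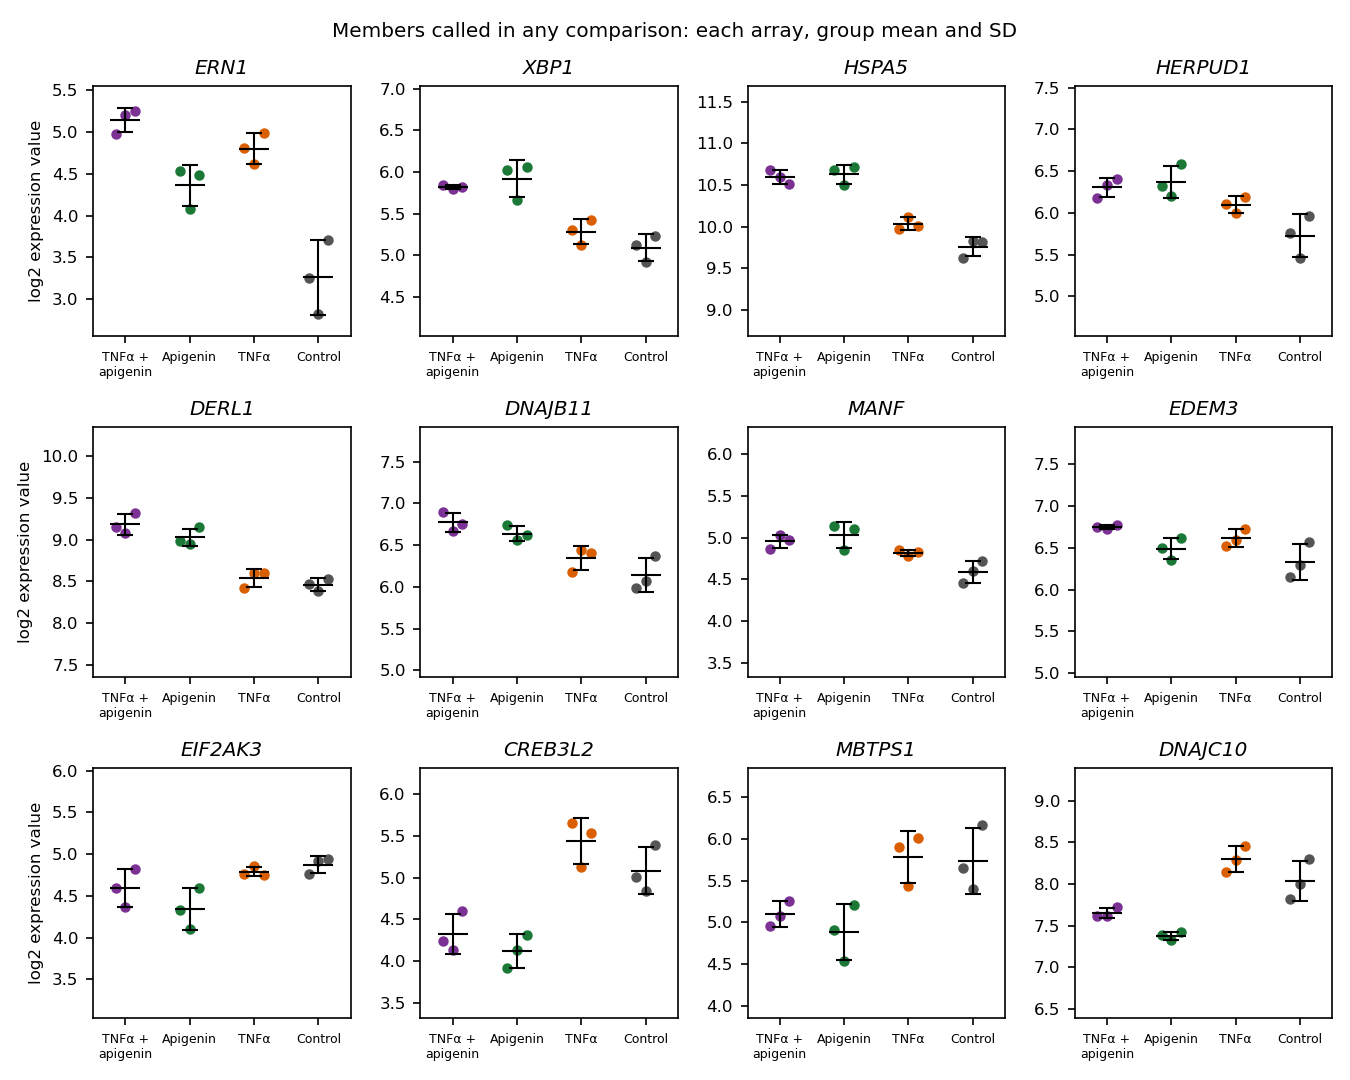
The 12 genes called in at least 1 comparison are plotted with the log2 expression value on the vertical axis. Points are arrays, horizontal marks are group means and bars are SD (n = 3); each panel spans 3 log2 units. ERN1 is higher in all 3 treated groups than in control. The 2 groups with apigenin overlap, apart from the other groups, for XBP1, HSPA5, DERL1, DNAJB11, CREB3L2 and MBTPS1, and narrowly for MANF. For DNAJC10 both lie below the groups without apigenin but do not overlap each other.

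Of the chaperones and co-chaperones 3 of 11 rose with apigenin (27.3%, against 4.55% of all genes), 1 fell (9.09%, against 6.83%) and 7 were not called. HSPA5 read 10.67, 10.60 and 10.51 with both treatments, 10.67, 10.50 and 10.72 with apigenin, 9.97, 10.12 and 10.01 with TNFα, and 9.63, 9.83 and 9.82 in control. The arrays with and without apigenin formed 2 ranges that did not overlap. HSPA5 rose 1.83-fold with apigenin against control (log2 difference 0.87, SE 0.11, adjusted p = 0.000277). DNAJB11, a co-chaperone of BiP, read 6.89, 6.67 and 6.75 with both treatments, 6.74, 6.56 and 6.62 with apigenin, 6.18, 6.45 and 6.41 with TNFα, and 5.98, 6.07 and 6.38 in control. It rose with apigenin against control (log2 difference 0.49, SE 0.13, adjusted p = 0.0260). MANF, a secreted protein retained with BiP, read 4.87, 5.03 and 4.97 with both treatments, 5.14, 4.85 and 5.11 with apigenin, 4.85, 4.78 and 4.82 with TNFα, and 4.46, 4.60 and 4.72 in control. It rose with apigenin against control (log2 difference 0.44, SE 0.12, adjusted p = 0.0266). The calls of both were lost without control replicate 1 or 2 or apigenin replicate 1 or 3, at adjusted p of 0.107, 0.0759, 0.105 and 0.0593 for DNAJB11 and 0.107, 0.0594, 0.113 and 0.0879 for MANF. Both calls were also lost in the fit of only the compared groups.

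DNAJC10, a reductase with a J domain that works with BiP and with degradation, moved the other way. It read 7.61, 7.62 and 7.72 with both treatments, 7.39, 7.33 and 7.42 with apigenin, 8.15, 8.29 and 8.45 with TNFα, and 7.82, 8.0 and 8.30 in control. No array with apigenin reached one without it, and the difference between apigenin and control was -0.66 (SE 0.13, adjusted p = 0.00506). Calreticulin (CALR), a lectin chaperone whose promoter holds an ERSE, read 10.85, 10.87 and 10.93 with both treatments, 10.97, 10.84 and 11.12 with apigenin, 10.99, 10.94 and 11.01 with TNFα, and 10.75, 10.90 and 10.95 in control. Arrays of apigenin and control overlapped, while those with both treatments lay just below those with TNFα. The difference between apigenin and control was 0.11 (95% interval -0.13 to 0.34, adjusted p = 0.650). Differences of the 7 chaperones that were not called ran from -0.03 (CRELD2) to 0.42 (DNAJB9, a BiP co-chaperone, adjusted p = 0.0530). HYOU1, a large chaperone and exchange factor, was among them with 0.27 (adjusted p = 0.158), as were the co-chaperone DNAJC3, calnexin (CANX) and SDF2L1. With quantile normalisation DNAJB9 passed in the limma fit (0.37, adjusted p = 0.0366). Apigenin arrays lay wholly above control for DNAJB9, HYOU1 and DNAJC3 (11.1% of all genes did so), and the other uncalled chaperones overlapped.

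None of the 5 disulfide enzymes was called between apigenin and control in the limma fit (11.4% of all genes were). An unadjusted p below 0.05 was found for 2 of them (40%, against 22.5% of all genes). Their differences ran from -0.34 for the oxidase ERO1A (adjusted p = 0.130) to 0.31 for the isomerase PDIA6. PDIA3 read 1.46 to 2.65 over all arrays, at the bottom of the scale, and only 10 of its 12 values reached the level of the filter. Its difference of 0.29 was not called (adjusted p = 0.561). In the degradation group 2 of 9 rose (22.2%, against 4.55% of all genes), none fell (6.83% of all genes) and 7 were not called. HERPUD1, a scaffold of the degradation complex, read 6.17, 6.33 and 6.41 with both treatments, 6.33, 6.21 and 6.59 with apigenin, 6.10, 6.0 and 6.20 with TNFα, and 5.76, 5.46 and 5.97 in control. All treated arrays were above control, and the rise with apigenin was 1.56-fold (log2 difference 0.64, SE 0.15, adjusted p = 0.0111). DERL1, a channel protein of this pathway, read 9.16, 9.08 and 9.32 with both treatments, 8.98, 8.95 and 9.15 with apigenin, 8.42, 8.60 and 8.60 with TNFα, and 8.46, 8.38 and 8.53 in control. It rose 1.48-fold with apigenin against control (log2 difference 0.57, SE 0.11, adjusted p = 0.00543). The relatives DERL2 and DERL3 differed by 0.09 and -0.07, the ligase SYVN1 by -0.11 and its partner SEL1L by -0.23. None of these was called, nor were EDEM1, EDEM3 and the lectin OS9, and the 7 together ran from -0.23 to 0.25. The 4 genes of translocon, vesicle export and membrane (SEC61B, SEC61A1, SEC24D and WFS1) differed by -0.34 to 0.33. None was called in the limma fit (11.4% of all genes were). Apigenin arrays lay wholly above control for SEC61B and SEC61A1 (50% of the 4, against 11.1% of all genes). The unadjusted p of 2 of the 4 was below 0.05 (50%, against 22.5%).

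The second comparison asked what TNFα alone changed. Of 35 genes 1 was called, ERN1 (2.86%, against 0.997% of all genes), and none was lower. It rose 2.92-fold with TNFα against control (log2 difference 1.55, SE 0.20, adjusted p = 0.00145), and it was called in each fit that left out 1 of the 6 arrays. XBP1, its substrate, differed by 0.19 with TNFα (95% interval -0.10 to 0.48, adjusted p = 0.676), and TNFα and control arrays overlapped. HSPA5 differed by 0.27 (95% interval 0.03 to 0.52, adjusted p = 0.371). Small positive differences were common: 30 of 35 genes had one (85.7%), against 54.9% of all genes, with a median of 0.14 against 0.02. The TNFα arrays lay wholly above control for 8 of 35 genes (22.9%), against 8.42% of all genes, and wholly below it for none (5.22% of all genes). Besides ERN1 these included HYOU1, which read 8.35, 8.32 and 8.30 with TNFα and 7.96, 7.94 and 8.02 in control, and DNAJB9, which read 4.69, 4.57 and 4.79 with TNFα and 4.18, 4.22 and 4.28 in control. Neither passed over all genes (differences 0.35 and 0.46, adjusted p = 0.201 and 0.143).

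Apigenin was next set against its absence in TNFα-treated cells. The group means came from other arrays than those of the first comparison, but the variance of each gene was shared over all 12 arrays. Of 35 genes 3 were higher (8.57%, against 4.21% of all genes) and 2 lower (5.71%, against 5.92%), together 14.3% against 10.1%. The higher genes were HSPA5 (log2 difference 0.56, SE 0.11, adjusted p = 0.00636), DERL1 (0.64, SE 0.11, adjusted p = 0.00298) and XBP1 (0.53, SE 0.14, adjusted p = 0.0234). The lower ones were CREB3L2 (-1.12, SE 0.18, adjusted p = 0.00182) and DNAJC10 (-0.65, SE 0.13, adjusted p = 0.00703). Unadjusted, 10 of 35 had a p below 0.05 in the limma fit (28.6%, against 21.8%). Arrays did not overlap for 8 genes in the higher direction (22.9%, against 11.6%) and 8 in the lower (22.9%, against 14.6%). The difference was positive for 19 of 35 (54.3%, against 47.8%). The 5 called genes were among the 11 called without TNFα, in the same direction, which is 45.5% of the 11 and 100% of the 5. Over all genes 59.2% of the calls without TNFα were called in the same direction with it, and 66.5% the other way round. XBP1 lost its call without TNFα replicate 1 or 2 or any one of the 3 arrays with both treatments, at adjusted p of 0.0600 to 0.0809. It also lost it without the 4 arrays numbered 3 (0.0647). The count was 8, with 4 higher and 4 lower, under quantile normalisation, when ATF6, DNAJB11 and MBTPS1 were added. The share of all genes called in that fit is not given here.

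**Figure D4:**
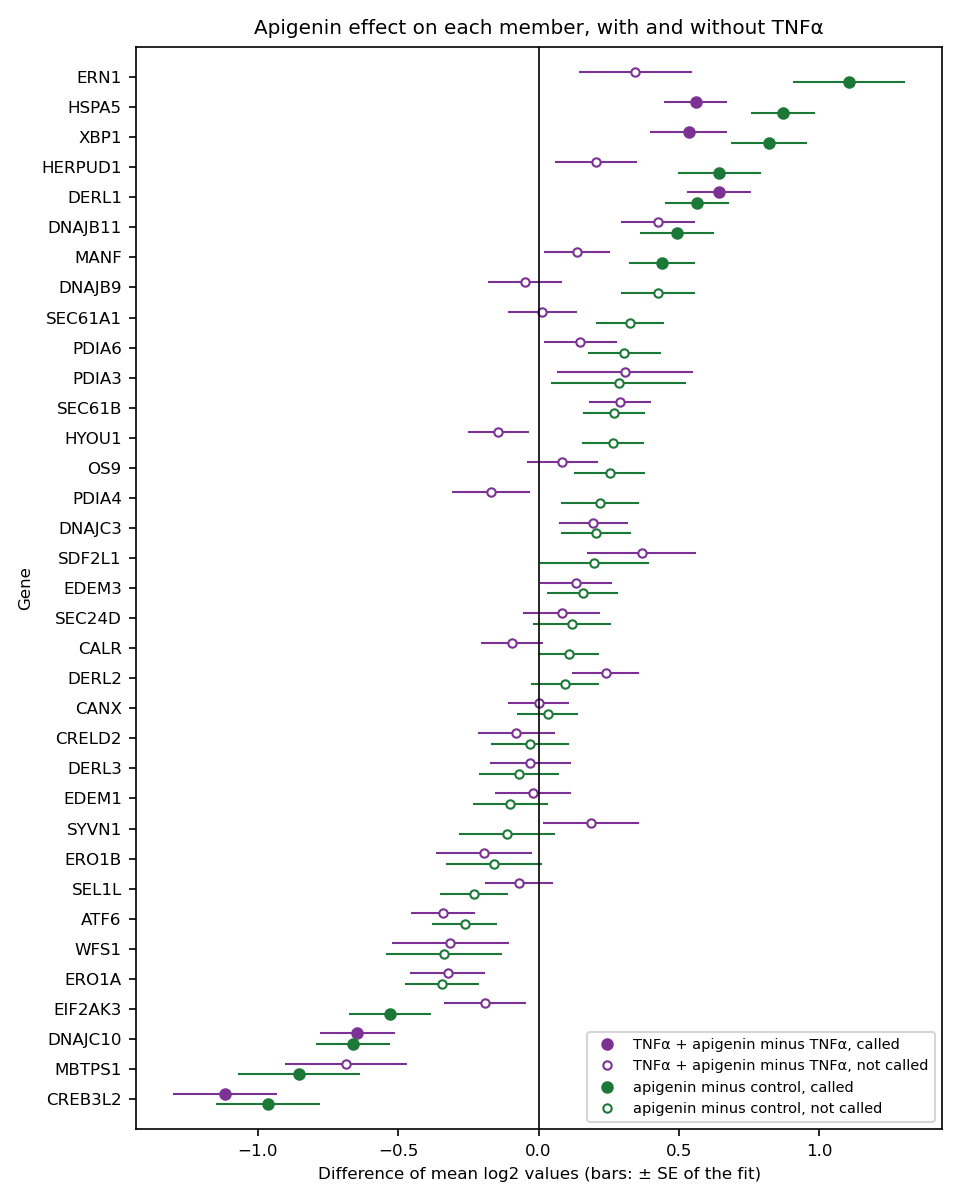
Each row is a gene, ordered by the difference between apigenin and control. Points are differences of mean log2 values, purple for TNFα plus apigenin minus TNFα and green for apigenin minus control, with bars of 1 SE; filled points are called. HSPA5, XBP1 and DERL1 are filled on the right in both colours and CREB3L2 and DNAJC10 on the left, while ERN1 is at 0.34 with TNFα present and 1.11 without it.

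ERN1 was not among those 5 genes: its apigenin difference was 0.34 with TNFα present (95% interval -0.09 to 0.78, adjusted p = 0.366). HERPUD1 differed by 0.21 (adjusted p = 0.489) and MANF by 0.14 (adjusted p = 0.590). EIF2AK3 differed by -0.19 (adjusted p = 0.529) and MBTPS1 by -0.69 (adjusted p = 0.0643). Whether the apigenin effect depended on TNFα was tested by the interaction, here the effect of TNFα on apigenin-treated cells less its effect on untreated cells. None of the 35 genes was called in the limma fit (0.00972% of all genes were called as positive and 0.0437% as negative, 0.0535% in all), and 3 had an unadjusted p below 0.05 (8.57%, against 4.23% of all genes). These 3 were ERN1 (-0.76, 95% interval -1.37 to -0.15), DNAJB9 (-0.47, interval -0.87 to -0.07) and HYOU1 (-0.41, interval -0.74 to -0.08), each with an adjusted p of 0.999. The interaction was positive for 14 of 35 genes (40%, against 51.6%). The interaction of the other 32 lay between -0.44 (HERPUD1) and 0.34 (EIF2AK3). The median 95% interval reached 0.403 to either side, which is the precision that 3 arrays a group gave.

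Adding TNFα to apigenin called none of the 35 genes in the limma fit (0.209% of all genes were called higher and 0% lower), and 1 had an unadjusted p below 0.05 (2.86%, against 7.24%). That gene was ERN1, with a difference of 0.78 (SE 0.20, 95% interval 0.35 to 1.22, adjusted p = 0.255); the 3 arrays with both treatments lay above the 3 with apigenin. Arrays with both treatments lay wholly above those with apigenin for 7 of 35 genes (20%, against 10.4% of all genes) and wholly below for none (3.77%), and the difference was positive for 25 of 35 (71.4%, against 58.2%). For HSPA5 the same difference was -0.04 (95% interval -0.28 to 0.21) and for XBP1 -0.10 (interval -0.39 to 0.20).

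Against control, the combined treatment gave 7 higher genes of 35 (20%, against 7.15% of all genes) and 1 lower (2.86%, against 5.37%), together 22.9% against 12.5%. Arrays did not overlap for 15 genes in the higher direction (42.9%, against 14.8%) and 4 in the lower (11.4%, against 12.9%). This comparison shares its control arrays with the comparisons of apigenin and of TNFα against control. ERN1 reached 3.71-fold (log2 difference 1.89, SE 0.20, adjusted p = 5.33e-05), the largest difference of any of the 35 genes in any comparison. HSPA5 (0.83, SE 0.11, adjusted p = 0.000303), XBP1 (0.72), DERL1 (0.72), DNAJB11 (0.63), HERPUD1 (0.58) and EDEM3 (0.41, adjusted p = 0.0483) were also higher, and CREB3L2 was lower (-0.76, SE 0.18, adjusted p = 0.0148). EDEM3, a mannosidase-like protein that marks glycoproteins for degradation, read 6.75, 6.72 and 6.78 with both treatments, 6.50, 6.36 and 6.61 with apigenin, 6.52, 6.60 and 6.73 with TNFα, and 6.15, 6.29 and 6.57 in control. It kept its call without control replicate 3 and lost it without each of the other 5 arrays, at adjusted p of 0.0987 to 0.188. The call was also lost in the fit of only the compared groups and with quantile normalisation. HERPUD1 lost its call without control replicate 2 (0.0810) or replicate 2 (0.0593) or 3 (0.0746) of the combined treatment, and CREB3L2 without control replicate 3 (0.0580) or replicate 1 (0.0597) or 2 (0.0642) of the combined treatment. Without replicate 2 of the combined treatment the count was 5. Quantile normalisation gave 6 higher and 5 lower, and the share of all genes called in that fit is not given here.

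The order of the group means shows these patterns for the genes called. For HSPA5 the means were 10.59 ± 0.08 with both treatments, 10.63 ± 0.11 with apigenin, 10.03 ± 0.08 with TNFα and 9.76 ± 0.11 in control (SD, n = 3 each). The 2 groups with apigenin differed by less than their SD, and both stood above the other two. For ERN1 the means were 5.15 ± 0.15 with both, 4.37 ± 0.25 with apigenin, 4.80 ± 0.19 with TNFα and 3.26 ± 0.45 in control. For CREB3L2 they were 4.32 ± 0.24 with both, 4.12 ± 0.20 with apigenin, 5.44 ± 0.27 with TNFα and 5.08 ± 0.28 in control. CREB3L2 was called between apigenin and control, between both treatments and TNFα, and between both treatments and control. It was not called between both treatments and apigenin or between TNFα and control. Apigenin alone was not compared with TNFα alone.

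Genes of the same compartment outside the 37 were counted from lists that, like the members, were chosen with earlier results of these data known. Of 17 genes listed as targets and partners of the transcription factor ATF4, 8 were higher with apigenin than in control (47.1%, against 4.55% of all genes). None was lower, and the median difference was 0.43. The list is labelled for the PERK arm, and whether PERK acted on these genes was not tested. The mRNA of EIF2AK3, which encodes PERK, was called lower in the same comparison, a call lost in 5 of 13 alternatives. The arrays did not measure the activity of the kinase. The genes named from this list were SESN2, a nutrient-stress regulator (1.36, SE 0.16, adjusted p = 0.000138), asparagine synthetase ASNS (1.09, SE 0.15, adjusted p = 0.000355) and PPP1R15A, the phosphatase subunit that reverses eIF2α phosphorylation (0.80, SE 0.15, adjusted p = 0.00372). With TNFα present 7 of these 17 were higher with apigenin (41.2%, against 4.21% of all genes) and none lower (5.92%). SESN2 (1.15, adjusted p = 0.000614) and ASNS (0.99, adjusted p = 0.000929) were among them and PPP1R15A was not (0.26, adjusted p = 0.376).

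In the remaining lists smaller shares were called, to be read against 4.55% higher and 6.83% lower over all genes. Of 31 other folding enzymes 2 were higher and 2 lower with apigenin against control (6.45% each, median 0.04). SDF2, a component of a BiP-associated complex and the close relative of SDF2L1, was higher by 1.35 (SE 0.20, adjusted p = 0.000782), while SDF2L1 itself differed by 0.20 (adjusted p = 0.627). Of 27 other degradation genes 3 were higher and 3 lower (11.1% each, median -0.03). The 3 lower ones were the ubiquitin-conjugating enzyme UBE2J1 (-1.15, SE 0.14, adjusted p = 0.000158), the ligase RNF5 (-0.76) and the lectin ERLEC1 (-0.70). All 3 were also lower with TNFα present, by -1.05, -0.85 and -0.69 (adjusted p = 0.000398, 0.00220 and 0.00787). Of 26 genes of translocon, signal peptidase and glycosylation none was higher and 1 was lower (3.85%), SRP72 (-0.50, adjusted p = 0.0145). Of 21 COPII genes 2 were higher (9.52%), SEC24A (0.55) and SEC24B (0.55), and none lower. Of 11 other membrane-bound sensors and partner factors 1 was higher (9.09%), the NF-Y subunit NFYA (0.43, SE 0.12, adjusted p = 0.0369).

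**Figure D5:**
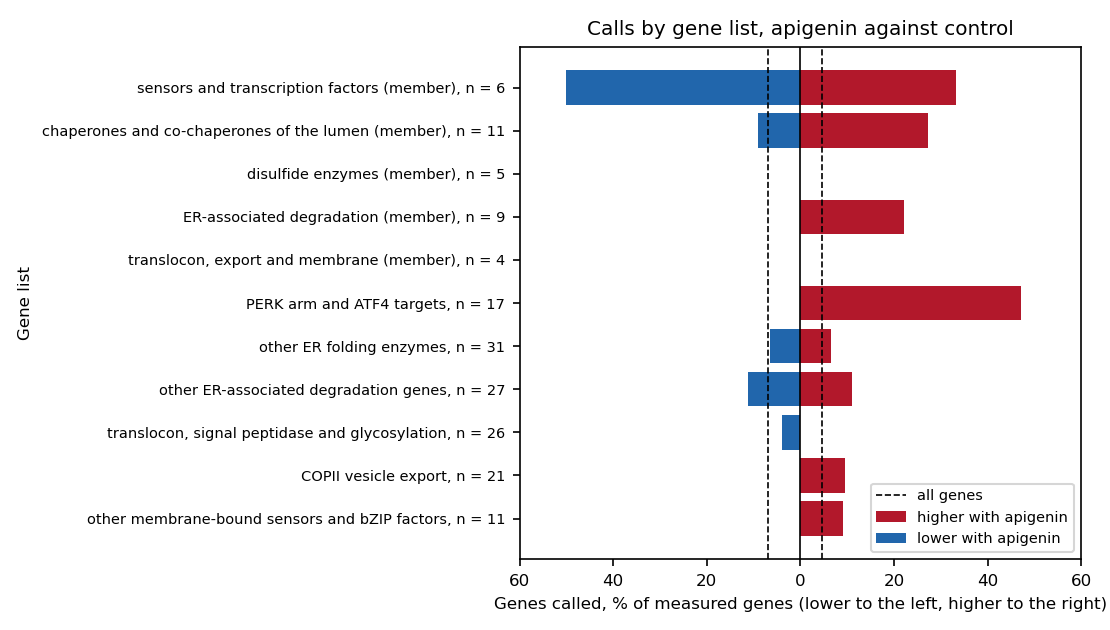
Rows are the role groups of the members and the other lists of the compartment, with the number of genes measured. Bars to the right are the percentage of genes called higher and bars to the left the percentage called lower between apigenin and control, and dashed lines are the shares over all genes, 4.55% and 6.83%. Calls in both directions appear for the sensors, the chaperones, the other folding enzymes and the other degradation genes. The list labelled PERK arm and ATF4 targets has the longest bar to the right and none to the left.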

How the data were processed

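RNA of 12 MDA-MB-231 samples was hybridised to whole-transcript arrays. The deposited log2 values, 1 per probe set and array, were made by the authors. Per the submitters' processing notes, the program was Affymetrix Expression Console; its version and algorithm and the genome build are not stated there. Their table held 53617 probe sets, of which 23871 carried 1 gene symbol, 1842 several and 27904 are unnamed here. Symbols were updated through gene identifiers. Each gene was read from its single-symbol probe set with the highest mean over the 12 arrays and kept where 3 or more arrays had it at or above their 25th percentile (20572 genes).

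The 4 group means were estimated together by limma (version 3.58.1, R version 4.3.3) with moderated variances, and p-values were adjusted by Benjamini-Hochberg over the 20572 genes. A gene was called below an adjusted p of 0.05. Intervals are 95% intervals of that fit. The fit was tested on simulated data with independent noise. Of changes of 1 log2 unit it found 69% between apigenin and control and 74% between both treatments and TNFα. Of changes of 2 units it found 98% in each, and 7 unchanged genes were called in each. The members, lists and motifs were chosen with earlier results of these data known. Per-array values are given for genes called in any comparison, for the sensors and for a few fixed genes, and at most 3 called genes are named from each further list. Alternatives were quantile normalisation, other filters, the replicate number as a block, a variance trend, averaged probe sets, fits of the compared groups only, and arrays left out. Promoters came from RefSeq, GRCh38.p14.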

Additional observations from a re-analysis of the deposited data

How the results depend on the processing

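Over 13 alternatives, the 25 calls of single genes were refitted 325 times in all; 287 kept the call, 38 lost it and none reversed. Averaging probe sets is left out of these counts, since each gene has 1. The 7 calls between apigenin and control that held in all 13 were ERN1, XBP1, HSPA5, HERPUD1, DERL1, CREB3L2 and DNAJC10. Leaving out 1 array at a time gave 7 to 10 calls between apigenin and control (11 with all arrays; 7 without apigenin replicate 1), 1 in every fit for TNFα and control, 4 to 5 between both treatments and TNFα, 5 to 9 between both treatments and control (8 with all arrays; 5 without replicate 2 of the combined treatment), and 0 in every fit for both treatments against apigenin and for the interaction. Quantile normalisation gave 8 calls between both treatments and TNFα, against 5.

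Same-numbered arrays deviated together at r = 0.0182 to 0.464 across genes, over 0.1 in 13 of 18 pairs, and 11 of 12 arrays correlated best with their own number. Nothing in the labels says that a number marks a shared day or culture, so the pairing is only a hint from the data. With the replicate number as a block the counts were 14 between apigenin and control (9 higher, 5 lower), 2 between TNFα and control (ERN1 and DNAJB9, against 1), 8 between both treatments and TNFα (against 5, with ATF6, DNAJB11 and MBTPS1 added at adjusted p of 0.0354, 0.0395 and 0.00377), 1 between both treatments and apigenin (ERN1, adjusted p = 0.0491, against 0) and 15 between both treatments and control (12 higher, 3 lower, against 8). The genes that the block added between apigenin and control were DNAJB9, SEC61A1 and ERO1A, at adjusted p of 0.0194, 0.0350 and 0.0438 in the limma fit. The cause of these shifts was not tested. The number of arrays limits precision: the median 95% interval of a gene reached 0.285 to either side between apigenin and control.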
